A study of Homo sapiens with 24 samples.

Results

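The comparison described here is between AC16 cells collected at T4 after exposure to 5 µM digoxin and the same line collected at T0 without treatment. It takes its members from the sample titles, 3 arrays for each group, and so uses 6 of the 24 arrays of the series. AC16 is an immortalized human line made by fusing adult ventricular cardiomyocytes with transformed fibroblasts. All cells first received 100 nM dexamethasone for 2 h and were then washed, a pulse that aligns the circadian clocks of cultured cells. T0 cells had that pulse and nothing more, and the T4 cells of this comparison were also given digoxin and collected 4 h later. The remaining groups, each of 3 arrays, were T4 vehicle, T4 with 0.5 µM digoxin, untreated cells at T16, and vehicle or either dose at T20. The sample labels place T4 and T20 cells 4 h after treatment, whereas the growth protocol names lysis 4, 16 and 20 h after it, although T16 was untreated. Because T0 carries neither vehicle nor later hours, the withdrawal of dexamethasone, elapsed time, handling and digoxin cannot be told apart in the difference between these groups. The vehicle level at T4 is therefore printed beside many of the members, but not beside all. Where it is not printed, the text does not show whether vehicle cells differed from T0 in the same way. The comparison asks which transcripts stood at the level already present at T0, and which lay above or below it. The labels do not say whether replicates were separate cultures, so the p-values rest on a spread between arrays that could be technical.

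Dexamethasone activates the glucocorticoid receptor, a transcription factor that induces PER1, KLF9, FKBP5, DUSP1 and other direct targets and restrains many inflammatory genes. A change of medium or a hormone pulse also brings up immediate early genes, whose short-lived transcripts encode factors such as FOS, JUN and EGR1. Digoxin is a cardiac glycoside that blocks the sodium potassium pump, which raises sodium and lowers potassium inside human cells and, through sodium-calcium exchange, can raise calcium. Many immediate early, cytokine and NF-kB target transcripts are unstable, so their level at one time reflects recent synthesis and decay together.

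All levels below are log2 gene values, the median of the quantile normalised probe sets of a gene, and all differences are T4 with 5 µM digoxin minus T0 on that log2 scale, with the standard error of a limma fit (n = 3 arrays per group). A gene passed at a Benjamini-Hochberg adjusted p under 0.05, two-sided. The deposited scale ran to 19.93, higher than a 16-bit scanner allows, so no linear folds are given. The arrays correlated at 0.980 to 0.985 within T0, at 0.986 to 0.988 within the digoxin group and at 0.973 to 0.978 between them. Fibroblast markers were well represented (15 of 19 passed the filter on low values, and these had a median T0 level of 13.6), whereas 6 of 33 cardiomyocyte markers passed, with a median T0 level of 6.01, and cardiac troponin T (TNNT2), the myosin heavy chain MYH7 and ACTN2 did not. Smooth muscle markers passed for 7 of 13, endothelial markers for 1 of 12 and leukocyte markers for 0 of 14. No marker of these lists passed the test as a median of probe sets, and by median polish, described next, 1 cardiomyocyte, 1 smooth muscle and 2 fibroblast markers were higher and 1 fibroblast marker lower. Their part in the results was not tested. Poly-A control probe sets read 9.75 at T0 and 9.96 with digoxin, a shift of 0.21, while the hybridisation controls shifted by -0.09. Rescaling to the poly-A controls left 128 genes higher and 628 lower than at T0, in place of the counts that follow.

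Of 11911 genes tested, 1019 passed (8.56%), 482 of them higher than at T0 (4.05%) and 537 lower (4.51%). With each array centred on its median these were 592 and 416. The median difference over all genes was -0.003. Differences beyond 1 in size were found in 217 of the higher and 272 of the lower genes, and beyond 2 in 20 and 46. A further 1055 genes (8.86%) did not pass and had a 95% interval inside 0.5 of T0, which is here called standing at the T0 level. The other 9837 (82.6%) were unresolved, and at a median standard error of 0.26 a change of 0.5 was rarely detectable. Combining probe sets by median polish in place of their median gave a median standard error of 0.14 and called 1148 genes higher (9.76%), 1534 lower (13%) and 5063 at the T0 level (43%) of 11764. Of the genes called by the median, 402 of the 482 higher (83.4%) and 450 of the 537 lower (83.8%) were called in the same direction by median polish, and 1 higher gene was called lower. Where the call of a gene in this comparison differs between the summaries, the text gives both values for many genes but not for all. Without the second T0 array the number higher was 321, without the first digoxin array the number lower was 335, and without the third digoxin array the numbers were 288 and 325.

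The deepest fall was that of DUSP5. DUSP5, a nuclear phosphatase that switches off ERK, read 15.36, 15.47 and 15.28 on the 3 T0 arrays and 9.69, 10.29 and 9.81 on the 3 digoxin arrays, with vehicle at 9.58 ± 0.26 (SD). Its difference was -5.44 ± 0.31 (adjusted p = 3.22e-10), and its digoxin and vehicle levels lay close together. EIF5, a translation initiation factor, fell from 15.04, 14.82 and 15.00 to 11.79, 11.94 and 11.72, a difference of -3.14 ± 0.26 (adjusted p = 9.39e-08). Here the vehicle level was 14.40 ± 0.23, near that of T0. TENT5B, a non-canonical poly(A) polymerase, read 10.44, 10.78 and 10.35 at T0 and 6.66, 6.61 and 6.90 with digoxin, and differed by -3.80 ± 0.16 (adjusted p = 6.86e-12), with vehicle between them at 7.42. ID1, an inhibitor of helix-loop-helix factors and a target of BMP signalling, read 17.83, 18.27 and 17.54 and then 14.59, 14.78 and 14.32, a difference of -3.32 ± 0.24 (adjusted p = 1.26e-08), and its vehicle level of 16.22 also lay between.

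Other deep falls had the following vehicle levels. GADD45B, a stress sensor of the GADD45 family, differed by -3.40 ± 0.29 with vehicle at 13.08 beside 12.20, RHOB, a short-lived small GTPase, by -2.96 ± 0.38 and HES1, a repressor downstream of Notch, by -2.86 ± 0.26. RHOB and HES1 had vehicle levels of 8.91 and 6.84 beside 8.99 and 7.30 with digoxin. MT1E, a zinc-binding metallothionein, differed by -4.76 ± 0.49 with vehicle at 8.62 beside 7.15, but it was read by 3 probe sets and has near-identical relatives, so its identity is uncertain. All 14 of the largest falls were also lower by median polish, where they ranged from -1.86 (RHOB) to -5.10 (DUSP5).

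Among the 14 largest rises, 10 were also higher by median polish. CXCL2 and CXCL8, chemokines that attract neutrophils, NFKBIZ, a nuclear IkB protein that is needed for IL6 induction, IL6 itself and the matrix protease ADAMTS1 were among them. ADAMTS1 read 11.89, 11.38 and 11.90 at T0 and 14.86, 14.79 and 14.84 with digoxin, a difference of 3.11 ± 0.24 (adjusted p = 4.43e-08), with vehicle at 12.80 ± 0.19. E2F8, an atypical E2F repressor of S phase genes, differed by 2.89 ± 0.31 (1.71 by median polish), and CENPA, the centromeric histone, by 2.44 ± 0.43 (1.18). ST3GAL1, a sialyltransferase, differed by 2.27 ± 0.31 (1.02). PLPP4, a lipid phosphatase, differed by 2.21 ± 0.21, and its vehicle level of 9.44 was close to the 9.84 of digoxin cells. B2M, the light chain of MHC class I, differed by 2.69 ± 0.29 as a median and by 0.51 by median polish.

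The other 4 rises on that list did not hold when the probe sets were combined differently. FDFT1, the squalene synthase, differed by 2.72 as a median and -0.15 by median polish (adjusted p = 0.44). MRPL16, a mitochondrial ribosomal protein, went from 2.35 to -0.36 (adjusted p = 0.016), the gene called in opposite directions. HNRNPD and ADPRM went from 2.27 and 2.18 to 0.17 and 0.04. The median difference of the single probe sets was -0.31 for FDFT1, -0.33 for MRPL16, 0.21 for HNRNPD and 0.24 for ADPRM. The probe sets of FDFT1 ranged in mean level from 2.81 to 18.3 and those of HNRNPD from 3.20 to 19.0. No statement below rests on these 4 genes, nor on GAPDH with -1.57 against -0.07, although they stay in the counts of their lists.

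**Figure D1:**
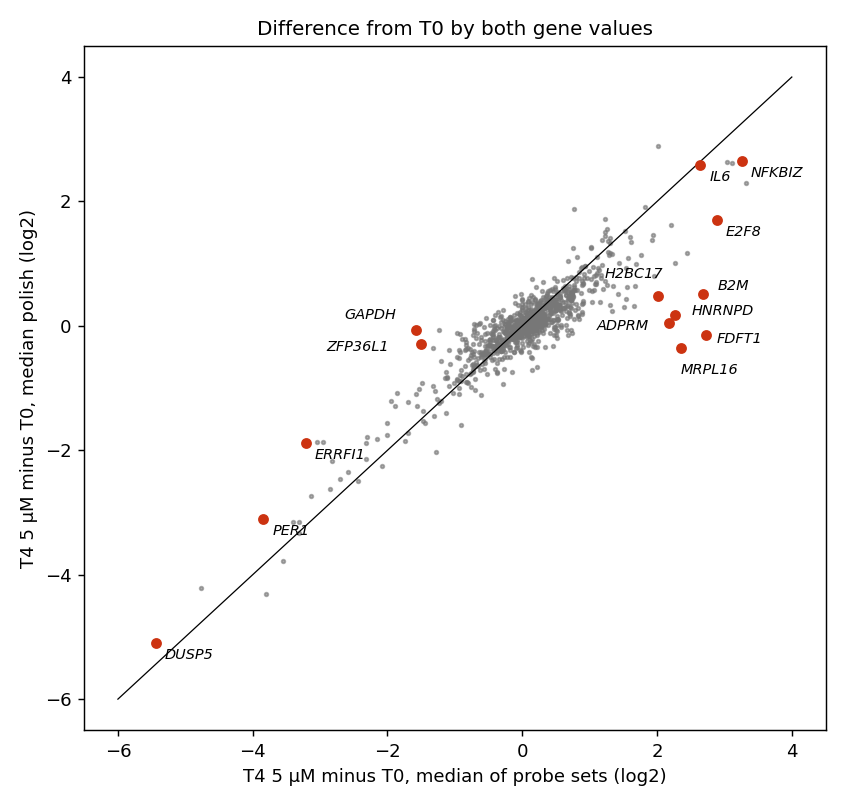
Difference from T0 (T4 with 5 µM digoxin minus T0, log2) for the genes of the lists and the named genes, with the median of probe sets on the x axis and median polish on the y axis; each point is a gene and the line marks equality. IL6, NFKBIZ, PER1 and DUSP5 lie near the line, whereas FDFT1, MRPL16, HNRNPD, ADPRM and GAPDH lie far from it and near 0 on the y axis.

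Of 20 clock genes tested, 9 fell below T0, 1 passed above and 10 were unresolved (11 below and 2 above by median polish), against 4.51% and 4.05% of all genes. PER1, a repressor of the core clock that dexamethasone induces directly, read 14.26, 13.89 and 14.47 at T0 and 9.71, 11.10 and 10.29 with digoxin. Its difference was -3.84 ± 0.36 (adjusted p = 6.26e-07), yet vehicle was far lower at 7.40 ± 0.18, and the digoxin arrays exceeded vehicle by 2.96 ± 0.36 (adjusted p = 2.34e-05). NR1D1 and NR1D2, the REV-ERB repressors of BMAL1, differed by -1.69 ± 0.27 and -1.49 ± 0.24, with vehicle levels of 4.57 and 10.51 beside 5.89 and 11.27 under digoxin. The excess over vehicle passed for NR1D1 and not for NR1D2 (adjusted p = 0.0047 and 0.057). Both T4 levels of NR1D1 lay below the 6.02 of the filter on low values, where differences are less certain. BHLHE40 and BHLHE41, the DEC repressors, differed by -2.82 ± 0.23 and -1.69 ± 0.21. DBP, an output activator, differed by -2.01 ± 0.30, and CIART, a repressor bound to BMAL1, by -1.28 ± 0.30.

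CRY1 lay below T0 and vehicle alike. This repressor partner of PER read 12.14, 11.78 and 11.81 at T0 and 10.86, 10.51 and 10.47 with digoxin, a difference of -1.30 ± 0.21 (adjusted p = 4.52e-04), while vehicle stayed at 11.79 ± 0.21. NFIL3, a repressor opposed to DBP, differed by -1.09 ± 0.16. PER2 spread widely, with 7.81, 10.65 and 9.03 on the digoxin arrays beside 8.69, 9.11 and 8.70 at T0, and its 0.33 ± 0.45 was unresolved (adjusted p = 0.73). BMAL1, CLOCK and PER3 did not pass, with -0.18 ± 0.28, 0.41 ± 0.16 and -0.35 ± 0.37. BMAL1 stood at the T0 level by median polish (-0.14) and CLOCK passed there with 0.43. CRY2 passed with 0.67 ± 0.18 and was lost by median polish (0.33, adjusted p = 0.077). CIART lost its call in 2 of the 6 fits that left out 1 array each, without the first T0 array or the third digoxin array.

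The promoter of PER1 is printed because this fallen gene belongs to the clock and is also a direct glucocorticoid receptor target. It is taken from RefSeq (GRCh38.p14, chr17:8152355-8152654, minus strand, 250 bases before to 50 after the start). The capitals mark an E-box, CACGTG, the site that CLOCK and BMAL1 can bind, at -173 from the start.
PER1: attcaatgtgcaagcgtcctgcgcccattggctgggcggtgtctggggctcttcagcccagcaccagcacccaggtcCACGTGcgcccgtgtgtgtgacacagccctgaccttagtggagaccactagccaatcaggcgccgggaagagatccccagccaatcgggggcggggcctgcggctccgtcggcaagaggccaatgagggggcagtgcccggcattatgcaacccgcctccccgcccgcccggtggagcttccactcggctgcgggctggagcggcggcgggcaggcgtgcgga

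Of 24 glucocorticoid targets tested, 7 stood below T0, 2 above and 1 at its level (11, 6 and 4 by median polish). Over all genes the shares were 4.51%, 4.05% and 8.86% (13%, 9.76% and 43%). KLF9, a Krüppel-like repressor, read 12.73, 12.83 and 12.94 at T0 and 10.43, 10.55 and 10.55 with digoxin, a difference of -2.32 ± 0.26 (adjusted p = 5.45e-06), and vehicle was lower at 8.72 ± 0.35. DUSP1, a phosphatase of p38 and JNK, read 17.51, 17.63 and 17.89 and 15.61, 15.59 and 15.60, a difference of -2.07 ± 0.22, again with a lower vehicle level of 13.23 ± 0.21. ERRFI1, an inhibitor of the EGF receptor, differed by -3.21 ± 0.15 (-1.88 by median polish) with vehicle at 13.48 beside 14.32, and SLC19A2, a thiamine transporter, by -1.48 ± 0.28 with vehicle at 8.98 beside 11.75. These 4 genes and PER1 thus lay between T0 and vehicle.

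The 2 targets above T0 were CRISPLD2 and FKBP5. CRISPLD2, a secreted protein, read 13.86, 13.40 and 14.16 at T0 and 15.54, 15.67 and 15.68 with digoxin, a difference of 1.82 ± 0.20 (adjusted p = 4.96e-06), and FKBP5, a co-chaperone of the receptor, differed by 1.17 ± 0.21 (adjusted p = 0.0012). Their vehicle levels were 15.59 and 15.36, beside 15.63 and 15.52 with digoxin. The probe sets of FKBP5 did not move together, with 8 of 12 higher and a range from -2.09 to 1.57 (0.82 by median polish). MT2A, a metallothionein, stood at the T0 level with 12.57, 12.52 and 12.95 and 12.73, 12.75 and 12.54 (95% interval -0.39 to 0.38). BCL6, a transcriptional repressor, read 12.53 at T0 and 12.49 with digoxin beside 10.87 in vehicle, and its interval of -0.64 to 0.56 was too wide to call, although median polish placed it at the T0 level (-0.12). NFKBIA, the IkB alpha inhibitor of NF-kB, was unresolved at -0.42 ± 0.40 and lower by median polish (-0.52). SGK1 and SESN1 did not pass with 1.42 ± 0.48 and 0.81 ± 0.27 and were higher by median polish with 0.52 and 1.10. ANGPTL4 and RGS2 differed by -1.13 ± 0.28 and -0.96 ± 0.28, calls that were lost in 3 and 5 of the 6 fits that left out 1 array (highest adjusted p 0.076 and 0.145).

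**Figure D2:**
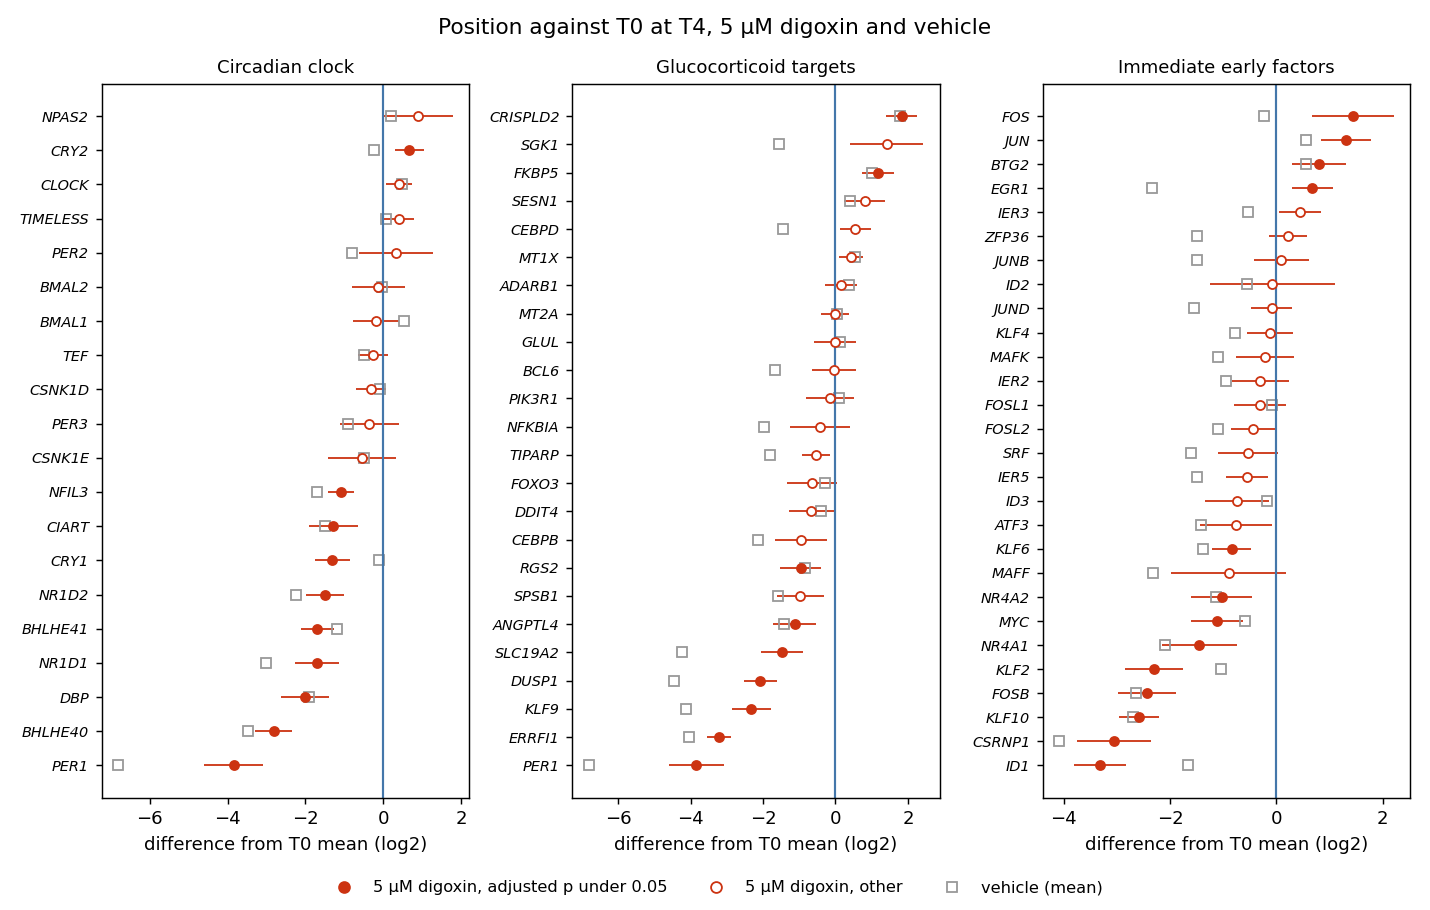
Position of clock, glucocorticoid target and immediate early genes against T0 (log2 difference on the x axis, 0 at the T0 mean). Red circles are T4 with 5 µM digoxin with 95% intervals, filled where the adjusted p was under 0.05, and grey squares are the mean of T4 vehicle; PER1, KLF9, DUSP1 and SLC19A2 with digoxin lie between vehicle and T0, EGR1, JUN and FOS lie to the right of 0, and CRISPLD2 and FKBP5 coincide with vehicle.

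Immediate early factors also took different positions. Of 28 tested, 9 stood below T0, 4 above and 1 at its level (13, 4 and 2 of 29 by median polish). The shares over all genes were 4.51%, 4.05% and 8.86% (13%, 9.76% and 43%). EGR1, a zinc finger activator, read 15.33, 15.53 and 15.45 at T0 and 16.26, 16.21 and 15.86 with digoxin, a difference of 0.68 ± 0.18 (adjusted p = 0.025), with vehicle far below at 13.09 ± 0.34. JUN, a partner of FOS in AP-1, read 15.19, 14.39 and 14.97 and 16.33, 16.03 and 16.10, a difference of 1.31 ± 0.22 (adjusted p = 7.95e-04) with vehicle at 15.41 ± 0.09. FOS was low in both groups, with 5.58, 4.41 and 5.36 at T0 and 7.26, 6.44 and 5.98 with digoxin, and differed by 1.44 ± 0.37 (adjusted p = 0.018). In all 3 genes the digoxin arrays lay above the T0 arrays, and the groups did not overlap, in either direction, for 27.1% of all genes. The call of EGR1 was lost in 4 of the 6 fits that left out 1 array (adjusted p 0.024 to 0.10), that of FOS in 2, and both were lost after scaling to the poly-A controls (adjusted p 0.31 and 0.072), whereas JUN passed in all of these.

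JUND, a stable member of the JUN family, stood at the T0 level with 12.25, 12.73 and 12.76 at T0 and 12.39, 12.67 and 12.40 with digoxin (interval -0.48 to 0.29), and vehicle was lower at 11.02 ± 0.27. JUNB and ZFP36, the latter a factor that destabilises cytokine mRNAs, read 11.91 and 13.35 beside 11.81 and 13.13 at T0 and 10.31 and 11.63 in vehicle. Their intervals, -0.43 to 0.62 and -0.13 to 0.58, were too wide to place them. Below T0 were KLF10, a TGF-beta-induced factor, with 16.50, 16.40 and 16.91 and 13.94, 14.03 and 14.06 and a difference of -2.59 ± 0.18 (adjusted p = 8.95e-09), and vehicle as low at 13.91. FOSB and CSRNP1 differed by -2.44 ± 0.26 and -3.05 ± 0.33, and KLF2 and KLF6 by -2.31 ± 0.26 and -0.84 ± 0.18. The orphan receptor NR4A1 differed by -1.45 ± 0.34 and the growth regulator MYC by -1.12 ± 0.23. MYC and KLF2 had vehicle levels of 13.31 and 7.59 beside 12.78 and 6.33 with digoxin, a gap that passed for KLF2 and not for MYC (adjusted p = 0.0046 and 0.19).

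The EGR1 promoter is shown as that of an immediate early gene above T0 whose control by serum response factor is well known. From RefSeq (GRCh38.p14, chr5:138465229-138465528, plus strand, 250 bases before to 50 after the start), it holds a pair of CArG boxes, the binding motif of that factor, in capitals at -105 and -83.
EGR1: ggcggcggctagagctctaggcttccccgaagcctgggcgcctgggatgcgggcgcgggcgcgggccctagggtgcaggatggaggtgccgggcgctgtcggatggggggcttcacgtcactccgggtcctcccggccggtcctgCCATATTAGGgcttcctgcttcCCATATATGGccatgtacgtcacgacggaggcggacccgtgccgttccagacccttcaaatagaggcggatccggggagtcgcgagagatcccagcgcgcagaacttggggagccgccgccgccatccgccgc

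Feedback inhibitors of MAP kinase signalling stood below T0 in 7 of 18 tested and above in 1 (8 and 2 of 17 by median polish). For the lists of this paragraph, the shares over all genes were 4.51% lower and 4.05% higher (13% and 9.76% by median polish). Besides DUSP5, DUSP1 and ERRFI1, DUSP2 differed by -2.71 ± 0.50 and DUSP14 by -0.80 ± 0.19, the latter lost without 1 of the 6 arrays. Among 11 CREB targets, 6 were lower and 1 higher by either summary, a list that shares PER1, DUSP1, NR4A1, NR4A2, RGS2 and FOS with those above. SIK1, a kinase that restrains CREB coactivators, differed by -1.74 ± 0.37. Of 17 YAP and SRF targets, 4 were lower and none higher (5 and none by median polish). CCN2, a matricellular growth factor, read 18.51, 18.56 and 19.02 at T0 and 15.44, 15.31 and 15.40 with digoxin, a difference of -3.32 ± 0.22 (adjusted p = 6.99e-09), and vehicle was lower at 13.59 ± 0.41. ANKRD1, a cardiac ankyrin repeat protein, read 11.15, 11.20 and 11.48 and 7.83, 7.65 and 7.71, a difference of -3.54 ± 0.27 (adjusted p = 3.20e-08), with vehicle at 5.59 ± 0.03. CCN1, the related matrix protein, differed by -0.81 ± 0.18. TPM1 passed with -0.74 and stood at the T0 level by median polish (-0.14).

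**Figure D3:**
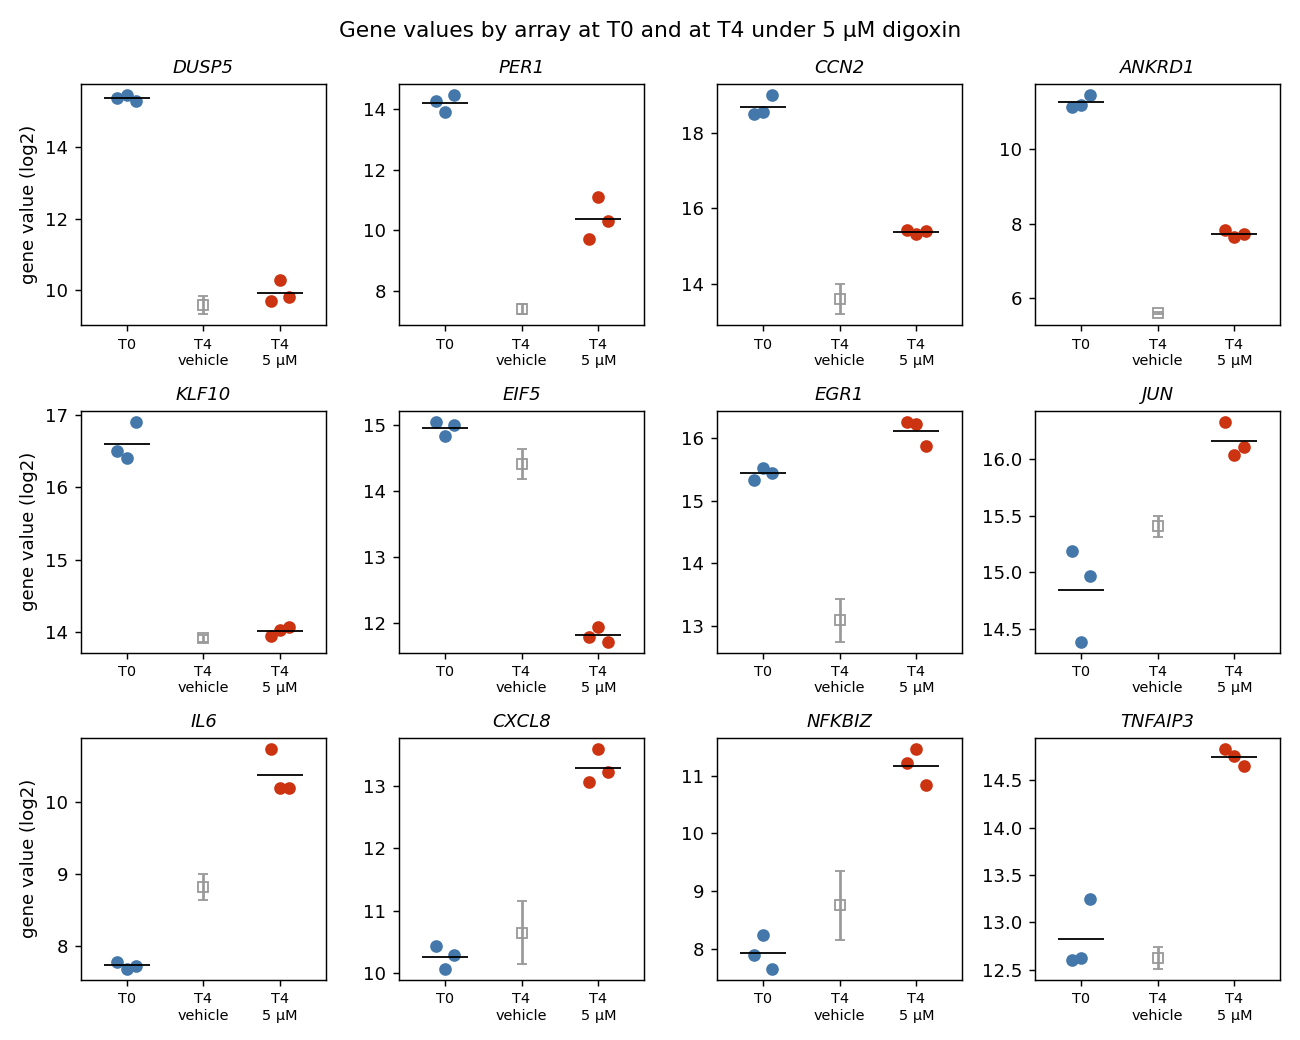
Log2 gene values on each array for 12 genes; blue points are the 3 T0 arrays and red points the 3 arrays of T4 with 5 µM digoxin, with black lines at their means, and grey squares give the mean and SD of T4 vehicle. DUSP5 and KLF10 with digoxin lie near vehicle, PER1, CCN2 and ANKRD1 between vehicle and T0, EIF5 below both, and IL6, CXCL8, NFKBIZ and TNFAIP3 above both.

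Cytokines and chemokines moved the other way. Of 20 tested in the IL6 family, IL1 family and chemokine list, 8 were higher than at T0 and 1 lower (10 and 1 by median polish). Over all genes, 4.05% were higher and 4.51% lower (9.76% and 13% by median polish). IL6, the founding cytokine that signals through gp130, read 7.78, 7.69 and 7.73 at T0 and 10.74, 10.19 and 10.20 with digoxin, a difference of 2.64 ± 0.19 (adjusted p = 1.07e-08), with vehicle at 8.82 ± 0.18. CXCL8 read 10.44, 10.06 and 10.28 and 13.06, 13.60 and 13.23, a difference of 3.04 ± 0.33 (adjusted p = 4.96e-06), with vehicle at 10.64 ± 0.51. CXCL2 read 6.31, 5.87 and 5.39 and 9.56, 9.09 and 8.90, a difference of 3.33 ± 0.31 (adjusted p = 4.98e-07), on 3 probe sets that near-identical chemokine genes could share. Its T0 readings of 5.87 and 5.39 lay below the 6.02 of the filter on low values, and 6.31 lay above it. Differences are less certain at such levels, so the size of this rise is too. IL11, a gp130 cytokine linked to fibrosis, read 11.35, 11.69 and 11.66 and 13.49, 14.00 and 13.22, a difference of 2.01 ± 0.28 (adjusted p = 8.32e-05), with vehicle at 11.15 ± 0.13. In each of these genes every digoxin array lay above every T0 array and above the vehicle mean. Over all genes, the arrays of the 2 groups did not overlap, in either direction, for 3229 of 11911 (27.1%). IL6, CXCL8 and CXCL2 are also among the largest rises, which were chosen from such genes, so their separation is no separate result.

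LIF, another gp130 cytokine, was the member below T0, with 11.43, 11.32 and 11.65 at T0, 9.58, 9.20 and 9.62 with digoxin and 8.72 ± 0.78 in vehicle, a difference of -2.001 ± 0.30 (adjusted p = 2.20e-04). CCL2, a monocyte chemokine, differed by 1.28 ± 0.20, and its vehicle level of 16.13 was higher than the 15.45 with digoxin. The receptor subunit IL6ST differed by 0.54 ± 0.15 and CSF2 by 1.12 ± 0.34, calls lost in 4 of the 6 fits that left out 1 array, and LIFR passed with 0.60 but stood at the T0 level by median polish (0.18). IL24, CLCF1 and CXCL1 did not pass with 0.60 ± 0.19, 0.64 ± 0.20 and 1.19 ± 0.40, and passed by median polish with 0.61, 0.57 and 1.39. IL1A, IL1B, CXCL5, CTF1 and OSMR were unresolved, with differences from 0.31 to 0.73, and CCL20, CCL7 and CXCL12 lay between -0.01 and 0.10. CXCL12 stood at the T0 level by median polish (0.21).

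Feedback genes of NF-kB were higher in 10 of 21 tested and lower in none (15 and 1 by median polish). Among all genes the shares were 4.05% and 4.51% (9.76% and 13%). NFKBIZ read 7.90, 8.23 and 7.65 at T0 and 11.22, 11.47 and 10.85 with digoxin, a difference of 3.25 ± 0.29 (adjusted p = 3.65e-07), with vehicle at 8.75 ± 0.60. TNFAIP3, the A20 deubiquitinase that shuts the pathway off, read 12.61, 12.63 and 13.25 and 14.83, 14.76 and 14.65, a difference of 1.92 ± 0.27 (adjusted p = 9.17e-05), with vehicle at 12.62 ± 0.12. NFKB1, the p105 and p50 subunit, differed by 1.07 ± 0.21, IRAK2, a kinase of the IL1 receptor complex, by 1.27 ± 0.26 and BIRC2, the cIAP1 ligase, by 0.92 ± 0.15. BIRC3, or cIAP2, differed by 1.30 ± 0.28, with a vehicle level of 10.93 beside 10.91. Scaling to the poly-A controls ended the call of BIRC2 (adjusted p = 0.077).

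The promoters of NFKBIZ and CXCL8 are printed as 2 members that stood far above both T0 and vehicle. Both come from RefSeq (GRCh38.p14, plus strand, 250 bases before to 50 after the start), NFKBIZ from chr3:101827740-101828039 and CXCL8 from chr4:73740319-73740618. Capitals mark a kappaB motif at -223 in NFKBIZ and an AP-1 motif, TGANTCA, at -137 in CXCL8. Only the exact consensus was searched, GGGRNWYYCC for kappaB, so unmarked stretches may hold other forms of a site.
NFKBIZ: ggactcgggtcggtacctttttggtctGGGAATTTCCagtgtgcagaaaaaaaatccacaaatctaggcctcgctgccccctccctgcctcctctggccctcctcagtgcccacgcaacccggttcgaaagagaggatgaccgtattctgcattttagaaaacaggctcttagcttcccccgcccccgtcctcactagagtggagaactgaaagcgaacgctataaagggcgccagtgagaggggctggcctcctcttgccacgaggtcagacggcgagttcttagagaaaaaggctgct
CXCL8: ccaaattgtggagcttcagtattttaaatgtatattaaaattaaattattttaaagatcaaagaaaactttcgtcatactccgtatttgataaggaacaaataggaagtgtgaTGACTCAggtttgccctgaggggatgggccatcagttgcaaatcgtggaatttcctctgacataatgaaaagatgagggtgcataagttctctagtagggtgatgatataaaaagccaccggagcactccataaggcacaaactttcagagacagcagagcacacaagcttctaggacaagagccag

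Such motifs were also found in promoters of genes that did not pass. Promoters of this length were at hand for 9275 tested genes, 387 of them above and 439 below T0, and both strands were searched. The kappaB motif, searched by its consensus, was in 8.01% of promoters above T0, 6.61% below and 6.5% of all tested. The CArG box was in 2.07% above (8 promoters), 0.456% below (2) and 1.01% of all. TGACGTCA, the cAMP response element, was in 4.78% below, 3.36% above and 3.35% of all, CACGTG in 11.4%, 10.3% and 10.5%, and TGANTCA in 4.78%, 4.65% and 4.43%. The palindromic glucocorticoid response element, searched by its consensus, was in none of these windows. The marked motifs do not overlap within the 4 promoters printed here, and a match describes the letters of the window only.

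**Figure D4:**
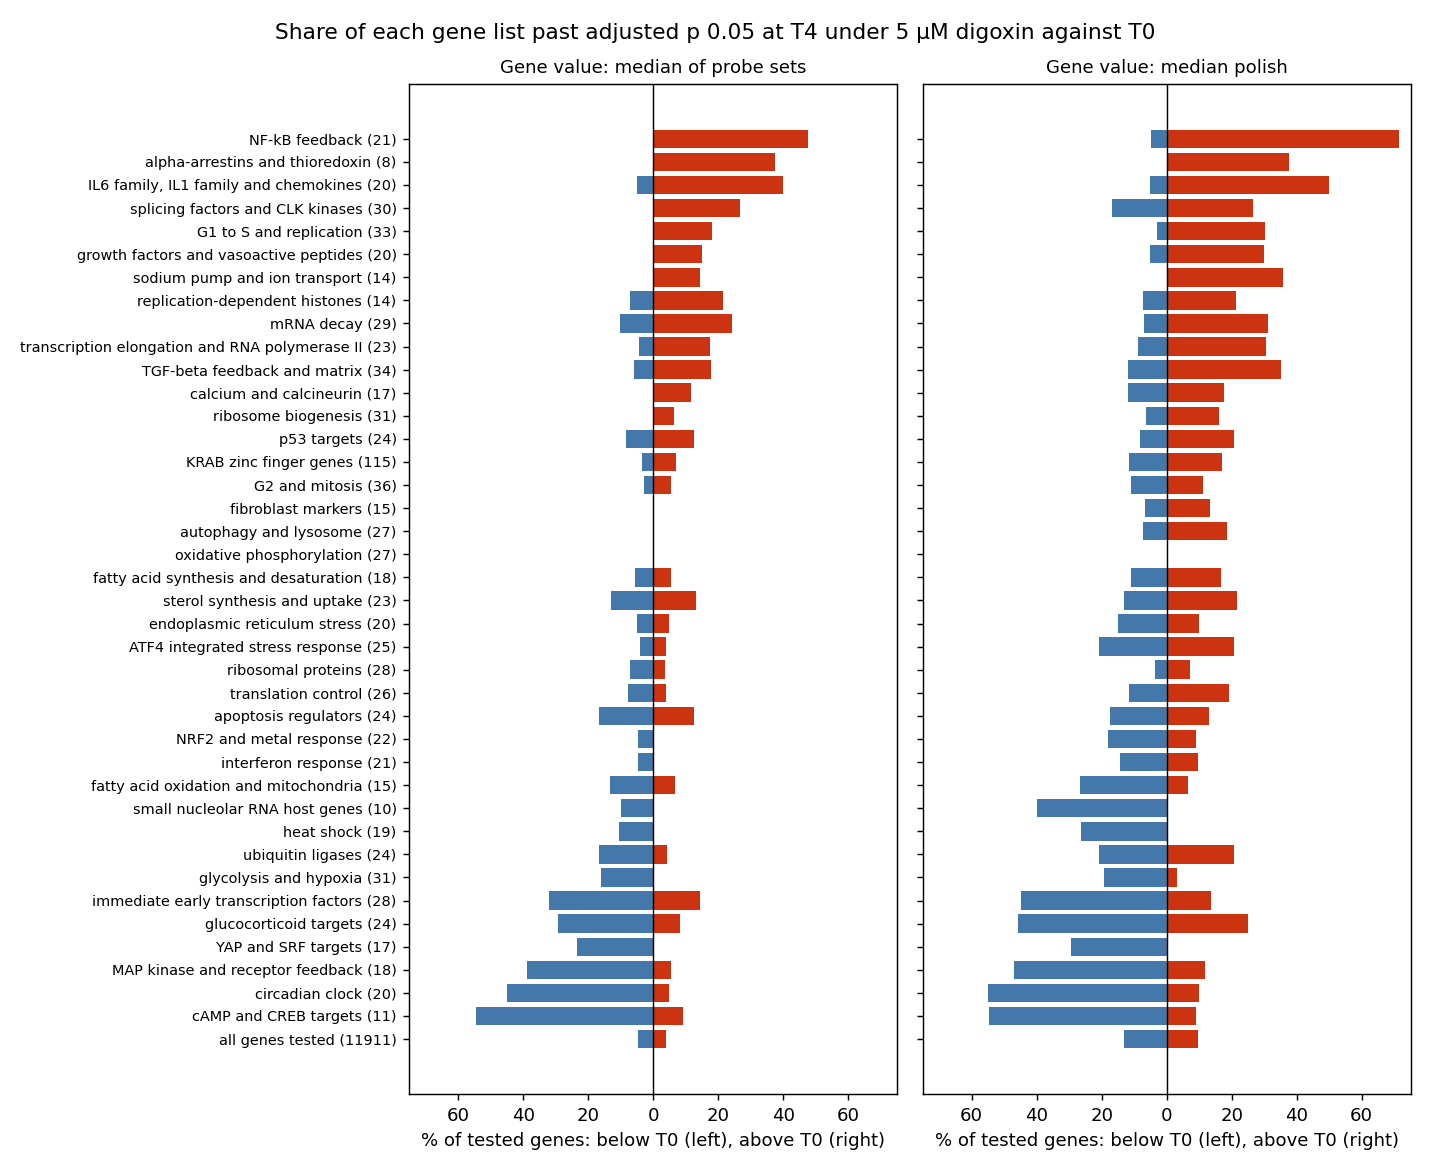
Percentage of the tested genes of each list (number tested in brackets) that stood below T0 (blue, left) or above T0 (red, right) at an adjusted p under 0.05, for gene values taken as the median of probe sets and by median polish. NF-kB feedback and the cytokine list extend to the right in both panels, and the clock, CREB target, MAP kinase feedback and immediate early lists extend to the left.

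Growth factors and matrix genes held further rises. FGF2 differed by 0.90 ± 0.14 (adjusted p = 3.57e-04), EGFR by 0.99 ± 0.21 and TGFB2 by 0.66 ± 0.17 (lost in 2 of the 6 fits that left out 1 array), the 3 higher genes of 20 in their list (6 higher and 1 lower by median polish). In the TGF-beta and matrix list 6 of 34 were higher and 2 lower (12 and 4). Beside both lists, 4.05% of all genes were higher and 4.51% lower (9.76% and 13% by median polish). HAS2, the hyaluronan synthase, differed by 1.59 ± 0.21, with a vehicle level of 15.56 above the 14.70 with digoxin. LTBP1, which stores latent TGF-beta, differed by 1.30 ± 0.20, with vehicle at 11.94 beside 12.15, and the BMP inhibitor SMAD6 by 1.62 ± 0.31. The urokinase gene PLAU differed by -1.32 ± 0.29.

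Of 14 genes of ion transport tested, 2 were higher and none lower (5 and none by median polish), beside 4.05% higher over all genes (9.76% by median polish). SLC6A6, the taurine transporter that responds to osmotic stress, read 11.53, 9.77 and 10.83 at T0 and 11.68, 12.39 and 12.68 with digoxin, a difference of 1.54 ± 0.34 (adjusted p = 0.0063), with vehicle at 10.82 ± 0.08. SLC12A2, a sodium potassium chloride cotransporter, differed by 0.57 ± 0.17 (adjusted p = 0.047), a call lost in each of the 6 fits that left out 1 array. The pump subunits ATP1B1 and ATP1B3 did not pass with 0.68 ± 0.29 and 0.70 ± 0.49, and passed by median polish with 0.53 and 0.49. SLC38A2, an amino acid transporter, stood at the T0 level with 19.08, 19.01 and 18.98 and 19.21, 19.12 and 19.21 near the top of the scale, where vehicle was 18.03 ± 0.13. NFAT5, the factor of the osmotic response, was unresolved at 0.28 ± 0.20 and higher by median polish (0.42), and SLC5A3, the inositol transporter, differed by -0.01 ± 0.21 (0.43). The sodium-calcium exchangers SLC8A1 and SLC8B1 were unresolved at 0.06 ± 0.38 and -0.37 ± 0.26, as were KCNMA1, FXYD5, SLC12A4, SLC12A7 and SLC20A1, with differences from -0.17 to 0.49. KCNMA1 and FXYD5 stood at the T0 level by median polish (-0.04 and -0.09). Of 17 calcium and calcineurin genes, NFATC2 and ATP2B1 were higher with 1.05 ± 0.22 and 0.51 ± 0.15, the latter lost in 4 of the 6 fits that left out 1 array, and the calcineurin feedback gene RCAN1 was unresolved at 0.74 ± 0.28.

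Genes of RNA metabolism moved in both directions. EEF2K, the kinase that slows translation elongation, read 10.30, 10.61 and 10.50 at T0 and 7.61, 8.55 and 8.28 with digoxin, a difference of -2.32 ± 0.25 (adjusted p = 3.76e-06), and vehicle stayed at 10.41 ± 0.32. Its level thus lay below both T0 and vehicle, the same order as EIF5. PPP1R15A, a phosphatase subunit that restores translation after stress, differed by 1.02 ± 0.22. In the mRNA decay list 7 of 29 were higher and 3 lower (9 and 2 by median polish), beside 4.05% and 4.51% of all genes (9.76% and 13%). RC3H1 and RC3H2, the Roquin proteins, differed by 1.09 ± 0.20 and 1.01 ± 0.15, while ZFP36L2 and ZC3H12A, the Regnase-1 nuclease, differed by -1.56 ± 0.27 and -1.02 ± 0.25, the latter lost in 2 of the 6 fits that left out 1 array. ZFP36L1 passed as a median (-1.51) and not by median polish (-0.29). The splicing list was higher in 8 of 30 and lower in none as a median, but 8 higher and 5 lower by median polish, so no direction is given for it. Its kinases CLK1, CLK3 and CLK4 passed in both, with 1.26 ± 0.22, 0.80 ± 0.19 and 1.23 ± 0.27. Of the 21 probe sets of CLK4, 14 were higher, in a range from -2.60 to 3.30.

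Cell cycle lists differed in their counts, to be read beside the 4.05% of all genes higher and 4.51% lower (9.76% and 13% by median polish). Among 36 genes of G2 and mitosis, 15 stood at the T0 level, 2 were higher and 1 lower (26, 4 and 4 by median polish), and CDC25C was the lower one with -0.97 ± 0.18. Of 33 G1 to S genes, 8 stood at the T0 level, 6 were higher and none lower (17, 10 and 1 by median polish), among them E2F7 with 1.12 ± 0.16, CDC25A with 0.97 ± 0.16 and E2F3 with 1.29 ± 0.32, the latter lost without 1 of the 6 arrays. Of 27 genes of oxidative phosphorylation, 8 stood at the T0 level and none passed (23 and none by median polish). Over all genes, 8.86% stood at the T0 level as a median and 43% by median polish. Of 932 list genes tested in all, 88 did so as a median, with 92 above, 78 below and 674 unresolved.

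Of 8 alpha-arrestin and thioredoxin genes, 3 were higher and none lower by either summary. For every list of this paragraph, the shares over all genes were 4.05% higher and 4.51% lower (9.76% and 13% by median polish). TXNIP and ARRDC4, alpha-arrestins that limit glucose uptake, differed by 1.23 ± 0.15 and 1.23 ± 0.36 (adjusted p = 1.92e-05 and 0.036), the latter lost in 5 of the 6 fits that left out 1 array, and ARRDC3 by 1.33 ± 0.29 although its vehicle level of 11.54 was well above the 9.55 with digoxin. GADD45A, a p53 target, read 14.64, 15.33 and 15.79 at T0 and 13.39, 12.71 and 13.20 with digoxin, a difference of -2.15 ± 0.36, with vehicle at 13.41. HERPUD1, a protein of endoplasmic reticulum degradation, differed by -1.48 ± 0.21, BAG3, a co-chaperone, by -0.94 ± 0.22 and LPIN1, a phosphatidate phosphatase, by -1.85 ± 0.27. Apoptosis regulators were higher in 3 and lower in 4 of 24 (3 and 4 of 23 by median polish), and glycolysis and hypoxia genes were lower in 5 of 31 and higher in none (6 and 1). Of these 5 lower genes, SLC2A1, BNIP3, ENO2 and LDHA lost the call in 3, 4, 5 and 6 of the 6 fits that left out 1 array. The remaining gene was GAPDH, with -0.07 by median polish. The p53 targets were higher in 3 and lower in 2 of 24 (5 and 2), and heat shock genes lower in 2 of 19 (5). The ATF4 list had SESN2 above with 1.68 ± 0.40 and VLDLR below with -0.83 ± 0.25 among 25 (5 and 5 of 24 by median polish), calls lost in 2 and 5 of the 6 fits that left out 1 array. Scaling to the poly-A controls also ended the calls of ARRDC4, ATP2B1, CLK3, CLK4, CRY2, CSF2, E2F3, EGFR, FN1, IL6ST, NFATC2, PPP1R15A, RC3H1, SESN2, SLC12A2 and TGFB2. Among sterol genes the medians of HMGCS1 and IDI1 passed (-0.83 and 0.66) and median polish carried neither (-0.30 and -0.06).

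Probe sets of a gene did not always move together. The test of unequal change called 896 of 10340 genes (8.67%), and 227 of the 905 tested genes that had passed as a whole. In FN1, the fibronectin gene, whose exons are alternatively spliced, 46 of 57 probe sets were higher with digoxin and 11 were lower by more than 1. The lowest read 12.42, 12.81 and 12.17 at T0 and 6.87, 7.50 and 7.81 with digoxin, a difference of -5.07, with vehicle at 9.94, while the highest differed by 1.13. The difference of the gene value, 0.51 as a median, was -0.26 as a mean of probe sets, and the call was lost in 3 of the 6 fits that left out 1 array. In EIF5, 13 of 20 probe sets were lower by more than 1 and 7 were higher, from -3.94 to 1.38. The lowest of them read 17.08, 16.70 and 16.45 at T0, 12.42, 13.28 and 12.70 with digoxin and 16.55 in vehicle, and the highest read 6.60, 5.69 and 5.74 at T0 and 7.11, 7.97 and 7.09 with digoxin. All 7 probe sets of DUSP5 were lower, by 0.66 to 6.46 in size. All 15 of TXNIP and all 17 of RND3, an atypical small GTPase, were higher, from 0.05 to 4.79 and from 0.02 to 4.66, and their smallest changes were in probe sets at the top of the scale, where a rise cannot show. Positions of the probe sets in the genes were not used here.

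The same dose at T20 was set against untreated cells at T16, a comparison that shares no array with the present one and in which 1945 genes passed (16.3%), 1035 higher (8.69%) and 910 lower (7.64%). Over 11911 genes the differences had a Pearson correlation of 0.29 and a Spearman correlation of 0.317, given as a description across genes, which are not independent replicates. The difference between these differences passed for 519 genes (4.36%), 157 more positive at T4 (1.32%) and 362 more negative (3.04%). Immediate early factors made up 19 of the latter among 28 tested, and clock genes 12 among 20, cytokines and chemokines 10 among 20, and glucocorticoid targets 10 among 24. The immediate early list had a median of -0.49 at T4 against T0 and 1.11 at T20 against T16, beside -0.003 and -0.02 over all genes. T0 followed the dexamethasone pulse directly and T16 did not, and the untreated levels differed, for example 14.21 for PER1 at T0 and 8.17 at T16.

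CXCL8 and IL6 were higher in both settings. CXCL8 differed by 3.04 ± 0.33 at T4 and 6.11 ± 0.33 at T20, and IL6 by 2.64 ± 0.19 and 4.94 ± 0.19, in each case more at T20 (differences of -3.08 ± 0.47 and -2.29 ± 0.26, adjusted p = 3.16e-04 and 7.74e-06). NFKBIZ differed by 3.25 ± 0.29 and 2.78 ± 0.29, and the difference of 0.48 ± 0.41 did not pass (adjusted p = 0.62). EIF5 was lower in both, by -3.14 ± 0.26 and -1.90 ± 0.26 (adjusted p of the difference 0.061). PER1, DUSP1 and CCN2 had opposite signs, with -3.84, -2.07 and -3.32 at T4 and 2.69 ± 0.36, 4.11 ± 0.22 and 4.53 ± 0.22 at T20.

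**Figure D5:**
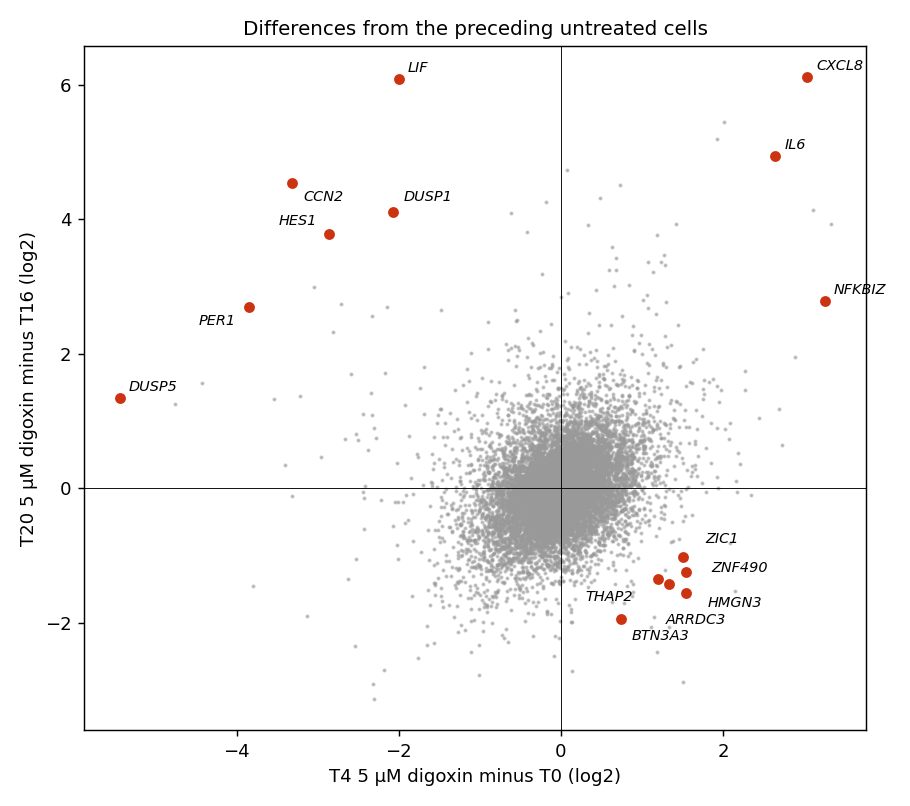
Difference of T4 with 5 µM digoxin from T0 (x axis, log2) against the difference of T20 with 5 µM digoxin from T16 (y axis, log2) for the 11911 genes tested, each a grey point, with 15 genes named in red. CXCL8, IL6 and NFKBIZ lie above 0 on both axes, and LIF, CCN2, HES1, PER1, DUSP1 and DUSP5 lie below 0 on the x axis and above 0 on the y axis.

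Comparisons that share arrays with the present one gave their own counts. T4 vehicle against T0 had 680 genes that passed (5.71%), 290 higher (2.43%) and 390 lower (3.27%). For 5 µM digoxin against vehicle at T4 these were 851 (7.14%), 387 (3.25%) and 464 (3.9%), and for 0.5 µM digoxin against T0 they were 768 (6.45%), 414 (3.48%) and 354 (2.97%). At T4 the doses differed in 4 genes (0.0336%), 3 higher at 5 µM (0.0252%), and 1 lower (0.0084%). These 4, named after their values were seen, were IL6 (1.63, adjusted p = 3.17e-04), the histone gene H2BC21 (1.43), the vault RNA VTRNA1-1 (2.48) and, lower, the prolactin receptor PRLR (-1.29). For the 0.5 µM arrays, PER1, EIF5, CXCL8 and IL6 had means of 8.64, 12.16, 12.41 and 8.74, beside 10.37, 11.82, 13.30 and 10.38 with 5 µM.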

How the data were processed

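The deposited values are log2 probe set values of 24 Human Gene 2.0 ST arrays, made by the authors with RMA normalisation in the GIANT tools of Galaxy, per the series' design text; no source used here gives versions or any further transformation. Here 352859 probe sets were quantile normalised, and the platform annotation gave a single symbol to 259224 (several to 13116, none to 80519), with 1726 symbols updated through RefSeq. The gene value was the median of a gene's probe sets (22260 genes, median 10 probe sets), and 11911 genes whose highest group mean reached 6.02 (the median over all gene values) entered the test.

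All 8 groups were fitted together with limma 3.58.1 in R 4.3.3 (16 residual degrees of freedom, eBayes moderation), with Benjamini-Hochberg adjusted p under 0.05 over all genes tested. All adjusted p-values in the text are from limma. diffSplice tested unequal change of probe sets in genes with 4 or more. On simulated data for this comparison (11911 genes), 8%, 50%, 94% and 100% of changes of 0.5, 1, 2 and 3 were recovered, and 5.97% of 134 calls were false. Fewer genes were changed in that simulation than the 1019 that passed in the data, so its rates need not hold there. Same-numbered replicates did not deviate together (correlations 0.01, -0.05 and -0.02), so no block was used in the principal fit.

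Genes named were the 14 largest rises and 14 largest falls that passed, did not overlap and had 3 or more probe sets, the genes of the clock, glucocorticoid, immediate early, ion transport and cytokine lists, up to 5 members of smallest adjusted p of each other list, the 6 largest in each direction of the difference between responses, and the 5 genes of smallest p for unequal probe sets among genes that passed the main test. Unnamed loci and small RNAs were passed over. The comparison, lists and members were chosen with earlier results of these data known. Median polish for the lists and positions was added after the data were seen. The number of arrays limits the precision. Promoters came from RefSeq.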

Additional observations from a re-analysis of the deposited data

Results flagged for a closer look

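The response to 5 µM digoxin at T4 against T0 differed from that at T20 against T16, by limma's test of the difference itself, for the 12 genes named by size (n = 3 arrays in each of 4 groups). The difference was positive for HMGN3 at 3.10, ZNF490 at 2.80, ARRDC3 at 2.76, BTN3A3 at 2.69, THAP2 at 2.55 and ZIC1 at 2.54. At T4 against T0, ZNF490, ARRDC3 and THAP2 had passed as higher, with 1.55 ± 0.25, 1.33 ± 0.29 and 1.197 ± 0.35, and HMGN3, BTN3A3 and ZIC1 had not, with 1.54 ± 0.50, 0.74 ± 0.50 and 1.51 ± 0.48. By median polish the differences between responses were 0.86 for HMGN3, 1.35 for ZNF490, 2.07 for ARRDC3, 2.18 for BTN3A3, 1.00 for THAP2 and 0.59 for ZIC1. HMGN3 passed at T4 against T0 by median polish with 0.43 (adjusted p = 0.047), whereas THAP2 did not with 0.59 (adjusted p = 0.095). ARRDC3, an alpha-arrestin, read 8.22 at T0 and 9.55 with digoxin at T4, against 11.73 at T16 and 10.30 with digoxin at T20. The calls of BTN3A3 and ZIC1 were lost with no filter on low values, and those of ZIC1 and THAP2 by median polish (adjusted p = 0.066 and 0.067). Leaving out 1 of the 12 arrays ended the call of BTN3A3 in 6 fits (highest adjusted p 0.0846) and that of ZIC1 in 9 (0.0918).

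The difference was negative for LIF at -8.08, CCN2 at -7.85, DUSP5 at -6.78, HES1 at -6.64, PER1 at -6.53 and DUSP1 at -6.19. LIF had the lowest of these values, with 11.47 at T0 and 9.47 with digoxin at T4, against 7.04 at T16 and 13.11 with digoxin at T20. HES1 read 10.16 and 7.30 at the early pair and 5.18 and 8.96 at the late one. In each of the 6 genes the untreated level was higher at T0 than at T16. The difference that chose them subtracts the T0 level and adds the T16 level, so this order is favoured by the choice and is no separate result.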

How the results depend on the processing

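Counts moved with the summary of probe sets, poly-A scaling, the filter, the arrays fitted, the minimum change and the band, and by under 1.5 times with cyclic loess, array-median centring and values as deposited. In place of 482 genes higher and 537 lower, median polish gave 1148 and 1534 and the mean of probe sets 1012 and 1152, with 366 and 321 list genes at the T0 level in place of 88, and with 624 and 945, and 499 and 713, genes more positive and more negative in the difference between responses in place of 157 and 362. Among named genes called in the principal fit or the setting, signs reversed by median polish for FDFT1 (-0.15), IDI1 (-0.060) and MRPL16 (-0.36). By the mean they reversed for FN1 (-0.26) and HMGCS1 (0.042). Centring on the poly-A controls moved the median difference of all genes to -0.21 and gave 128 higher, 20 list genes at the T0 level, and 69 and 184 for the difference (its median 0.15). Centring each array on its median gave 592 higher and 416 lower. No filter gave 314 and 340 (82 more positive), only the arrays compared 205 and 271 (87 more positive, 41 at the T0 level), and a minimum change of 1 gave 14 and 36. A band of 0.3 held 0 list genes and a band of 1 held 515. Leaving out 1 array gave 288 to 412 higher, 325 to 414 lower, 50 to 68 at the T0 level (58 without T0 replicate 1, 51 without T0 replicate 3, 50 and 58 without T4 5 µM replicates 2 and 3), 102 to 195 more positive (102 without T20 5 µM replicate 1, 104 without T4 5 µM replicate 3) and 284 to 372 more negative. Fewer arrays were then fitted over the same genes, and otherwise the cause was not tested. With a replicate block the counts were 475 and 521, 136 and 357, and 88. Over all genes named and all settings, 6067 values kept their side of the threshold, 562 lost the call and 203 gained it. A further 5 changed sign with a call in the principal fit or in the setting. Sign changes of genes called in neither are among the 6067.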
